A study of Mus musculus with 12 samples.

Results

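The genes described here are those of cyclic AMP (cAMP) signalling in the mouse kidney. They were chosen by name, with no threshold on a measured value but with earlier results of these data known, as the adenylyl cyclases, the cyclic nucleotide phosphodiesterases, the subunits of protein kinase A (PKA), the A-kinase anchoring proteins (AKAPs), *Creb1*, *Crem* and *Atf1*, the CRTC coactivators and the Epac exchange factors. This rule took 60 of the 54532 genes in the count table. They comprised 10 cyclases, 22 phosphodiesterases, 2 catalytic and 4 regulatory subunits of PKA, 14 AKAPs, 3 factors of the CREB family, 3 CRTC coactivators and 2 Epac genes.

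Adenylyl cyclases make cAMP when a receptor coupled to the stimulatory G protein is occupied, and phosphodiesterases break it down. The cAMP binds the regulatory subunits of PKA and frees the catalytic subunits, which AKAPs hold near their substrates, or it activates Epac, while phosphorylated CREB and its CRTC partners switch on target genes. In the collecting duct vasopressin works through this pathway, and in polycystic kidney disease cAMP drives fluid secretion into cysts and growth of the cyst epithelium.

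Total RNA of whole, flash-frozen kidneys was sequenced from 12 mice aged 18 days, in 4 groups of 3, and the values are reads counted on each gene. All mice carried the hypomorphic *Pkd1* RC allele and were on a C57BL/6 background. The noncystic mice, *Pkd1* RC/+, had a floxed second *Pkd1* allele without Cre recombinase, and the cystic mice, *Pkd1* RC/-, lost that allele through Cre driven by the Ksp (cadherin-16) promoter, which is active in tubule epithelium. Within each of these, mice were *Pkd2* +/+ or *Pkd2* Δ17/Δ17. The Δ17 allele is a germline deletion, made with CRISPR/Cas9, of the binding motif for the microRNA miR-17 in the *Pkd2* 3′-UTR. The mature miR-17-5p is shown because its seed, bases 2 to 8 in capitals, is what the deleted motif pairs with (RefSeq, GRCm38.p6, chr14:115043684-115043706, forward strand):
mmu-miR-17-5p: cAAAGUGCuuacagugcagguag

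Total counts ran from 18800307 to 24453033 reads per mouse. Levels are given as CPM, the reads of a gene scaled to a common library total, with TMM factors that correct for composition. *Pkd2* itself, the edited gene, stood at 213 to 233 CPM in cystic *Pkd2* +/+ kidneys and at 307 to 337 CPM in cystic *Pkd2* Δ17/Δ17 kidneys, a log2 fold change of 0.53 (adjusted p = 0.0025). All adjusted p-values are Benjamini-Hochberg values over all genes of the quasi-likelihood test in edgeR. The noncystic mice of these genotypes stood at 194 to 219 and 271 to 286 CPM, also without overlap, and there the test did not pass (log2 fold change 0.40, adjusted p = 0.771). The summed level of 6 adrenal gland markers was 4.0 to 7.2 CPM in 10 mice, 63.6 CPM in mouse 27 (cystic *Pkd2* +/+) and 445 CPM in mouse 30 (cystic *Pkd2* Δ17/Δ17), so these libraries stood apart and the results were also computed without them.

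Markers of other cells moved with the cysts. All 8 macrophage markers were higher in cystic than in noncystic *Pkd2* +/+ kidneys (sum 148 to 159 against 357 to 518 CPM), as were 8 of 8 cell cycle genes, 5 of 8 smooth muscle and 4 of 8 collecting duct markers. All 8 proximal tubule markers, all 5 red blood cell markers (sum 591 to 969 against 251 to 353 CPM), 6 of 8 endothelial and 5 of 6 podocyte markers were lower, and the other podocyte marker, *Synpo*, was higher. Of 8 fibroblast markers 4 were higher and 2 lower. In RNA of a whole kidney, fewer cells of a type and less RNA per cell cannot be told apart, and this bears on every value below.

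Of the 60 genes, 56 passed the cutoff on low counts. The other 4 were *Adcy8*, *Akap4*, *Akap14* and *Pde6c*, with at most 3 reads in any mouse. In all, 11 of the 60 averaged under 1 CPM, among them the sperm-associated *Akap3* and *Akap4*, the soluble cyclase *Adcy10* and the photoreceptor enzymes *Pde6a*, *Pde6b* and *Pde6c*. At the other end 18 genes averaged at least 50 CPM, led by the PKA regulatory subunit *Prkar1a*, which had 7007 to 12037 reads per mouse. Some exon bases of 16 members are shared with another annotated gene, so their reads are uncertain to that extent: 0.559 to 8.95% of the bases for 14 of them, *Adcy6* (8.92%) among them, and more for *Adcy3* and *Pde2a*.

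Cystic and noncystic kidneys of *Pkd2* +/+ mice were compared first. Of the 56 genes, 9 were higher (16.1%) and 12 were lower (21.4%) at an adjusted p under 0.05, where 16.9 and 14.2% of all 24642 genes tested were higher and lower. The groups of mice did not overlap for 25 of the 56, where 41.7% of all genes did not overlap. The median log2 fold change was 0.05 for the 56 genes and 0.02 for all genes, and the median size of the change was 0.30 and 0.47. The share that was higher lay near that of all genes, and the share that was lower lay above it. Called members that changed at least 2-fold were *Adcy7*, *Pde8b*, *Pde4c* and *Prkar2b*. The share of all genes at that limit is not given here. In either direction 37.5% of the members passed, where 31.1% of all genes passed. Leaving out genes with a mean log2CPM under 1 gave 46.8% of the members and 51.9% of all genes. With the edgeR filter on low counts (filterByExpr) these shares were 42.3 and 45.1%. Under these 2 stricter cutoffs the members thus showed no excess over all genes. The split in direction depended on the scaling: with library totals in place of TMM factors, which shifted the median of all genes up by 0.16 on the log2 scale, 14 were higher and 6 lower. Together these were 35.7% of the members, where 35.4% of all genes passed.

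In *Pkd2* Δ17/Δ17 mice, which are other mice, 9 of the 56 genes were higher (16.1%) and 7 lower (12.5%), against 12.8 and 10.2% of all genes. Leaving out genes with a mean log2CPM under 1 gave 40.4% of the members in either direction and 41.9% of all genes. With filterByExpr these shares were 34.6 and 34.7%. With library totals (median shift 0.15) the split was 17 higher and 3 lower, together 35.7%, where 28.4% of all genes passed. In both genotypes 7 genes were higher (*Adcy3*, *Adcy7*, *Akap12*, *Crtc3*, *Pde3b*, *Pde8b* and *Prkar1a*) and 6 were lower (*Adcy4*, *Akap1*, *Pde4c*, *Pde4d*, *Pde8a* and *Prkar2b*), and none was called in opposite directions. These 13 genes made up 61.9% of those called in *Pkd2* +/+ mice and 81.2% of those called in *Pkd2* Δ17/Δ17 mice. Over all genes tested the shares were 63.0 and 85.0%. Without mice 27 and 30 the count was 17 (6 higher, 11 lower) in *Pkd2* +/+ mice, which is 30.4% where 26.7% of all genes passed, and 10 (6 higher, 4 lower) in *Pkd2* Δ17/Δ17 mice, 17.9% where 17% of all genes passed.

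**Figure D1:**
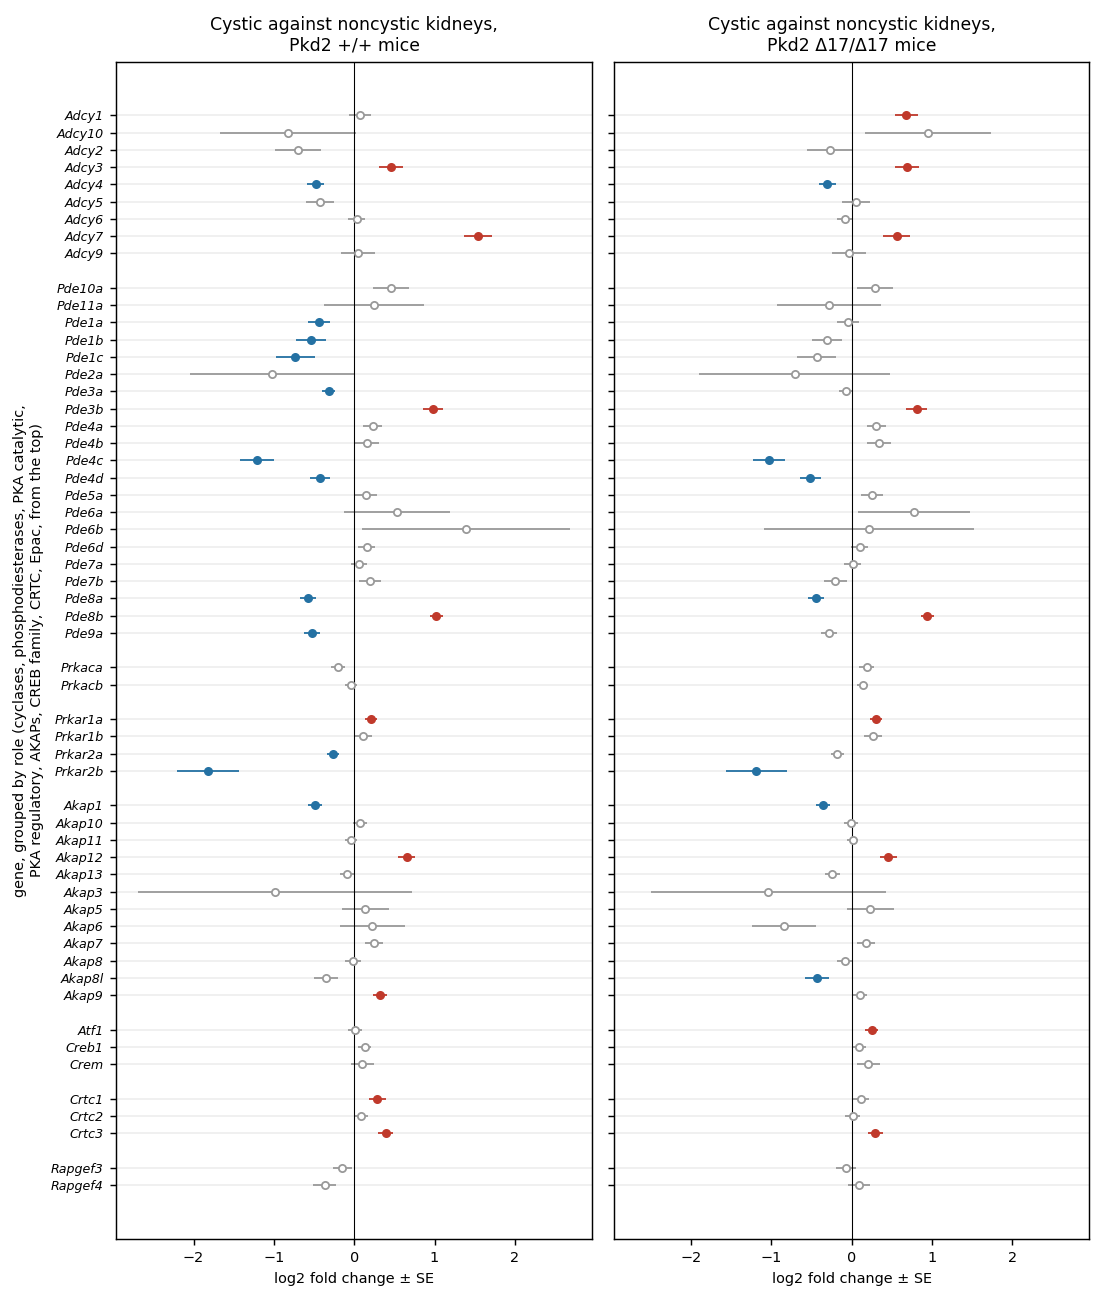
Log2 fold change (x axis, bars are the standard error) between cystic and noncystic kidneys for the 56 genes tested, one gene per line and grouped by role, in *Pkd2* +/+ mice (left) and *Pkd2* Δ17/Δ17 mice (right). Filled points passed an adjusted p of 0.05 (red higher, blue lower); *Pde8b*, *Pde3b* and *Pde4c* lie far from 0 in both panels and *Adcy6*, *Prkacb* and *Crtc2* near 0, and the widest bars belong to genes with few reads such as *Akap3* and *Pde6b*.

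The letters that CREB binds were looked for in the promoters of the 60 genes, since CREB can act on genes of its own pathway. RefSeq windows from 250 bases before to 50 after a start site (GRCm38.p6) were matched for 49 of the 60. The full element TGACGTCA, which reads the same on both strands, was in the window of 1 of these genes, *Prkar1a* (2.04%, where 2.03% of all 27025 genes in the table had it). The shorter TGACG on either strand, which the full element contains, was in the windows of 17 of the 49 genes (34.7%, where 23% of all genes had it). Genes can have several windows, and counted by window it was in 19 of 91 of the members (20.9%) and in 20.8% of all 32851. Sequences of members with a changed level are shown with the matched letters in capitals, first the full element of *Prkar1a* (chr11:109650886-109650911, forward strand), then the shorter one of *Adcy7* (chr8:88282955-88282980, forward strand, where the capitals are its reverse complement), *Pde8a* (chr7:81213172-81213197, forward strand) and *Pde8b* (chr13:95223001-95223026, reverse strand):
Prkar1a: agagcgaggcgcatTGACGTCAgcag
Adcy7: tcatagagcCGTCAggggggtggggc
Pde8a: gctttgcatTGACGccagcagccgct
Pde8b: agggaaagttggggTGACGcgcgctg

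Among the cyclases, 2 of 9 tested were higher in cystic *Pkd2* +/+ kidneys and 1 was lower, where 16.9% of all genes were higher and 14.2% lower. *Adcy7*, a cyclase that is abundant in immune cells, rose most (ENSMUSG00000031659, chr8:88272403-88329962, forward strand of GRCm38 as annotated in GENCODE M21). Its level was 6.8, 6.5 and 5.29 CPM in the noncystic and 18.2, 19.6 and 16.1 CPM in the cystic *Pkd2* +/+ mice, 2.90-fold higher (log2 fold change 1.54, SE 0.17, adjusted p = 3.59e-06). Every cystic mouse lay well above every noncystic mouse. The levels in *Pkd2* Δ17/Δ17 mice were 8.23, 9.27 and 7.21 CPM without cysts and 10.4, 10.5 and 15.5 CPM with cysts, a log2 fold change of 0.56 (SE 0.17, adjusted p = 0.025). Here the groups still did not overlap, but mouse 30 stood above the other cystic mice, and without it the adjusted p was 0.175. It was 0.0652 without mouse 22 and 0.111 without mouse 24. The macrophage markers ran beside *Adcy7*: their sum was 357, 518 and 465 CPM in mice 25, 26 and 27, 267 and 273 CPM in mice 28 and 29, and 352 CPM in mouse 30. Their part in the result was not tested.

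*Adcy4*, a cyclase found in endothelium, went the other way. It stood at 22.2, 22.6 and 21.8 CPM in noncystic and 16.7, 16.4 and 14.8 CPM in cystic *Pkd2* +/+ mice (log2 fold change -0.48, SE 0.11, adjusted p = 0.00207). The cystic mice were all lower, and the 3 values within each group lay close together. The change in *Pkd2* Δ17/Δ17 mice was -0.31 (adjusted p = 0.0451), and leaving out mouse 19, 23, 24, 27, 28 or 30 brought the adjusted p to between 0.0505 and 0.183. Mice outside a comparison, here 19 and 27, enter it only through the joint fit, that is the shared estimate of the spread, the scaling, the cutoff and the adjustment. The same holds for such mice named below. The sum of 8 endothelial markers was 1196 to 1352 CPM in noncystic and 759 to 913 CPM in cystic *Pkd2* +/+ mice. Their part in the result was not tested.

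*Adcy3*, which is known from olfactory cilia and is also found on primary cilia, was 1.38-fold higher in *Pkd2* +/+ cystic kidneys (adjusted p = 0.0252) and 1.61-fold higher in *Pkd2* Δ17/Δ17 cystic kidneys (adjusted p = 0.00277). It is a gene of 5.18 to 9.86 CPM, and 22.1% of its exon bases are shared with *Cenpo* on the other strand, so its reads are uncertain because the strand setting of the counting is not stated in the sources used here. The *Pkd2* +/+ result ended without mouse 19, 20, 26 or 27 (adjusted p 0.0616 to 0.102).

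*Adcy6*, the main calcium-inhibited cyclase of the tubule, held 68.6% ± 1.40 (SD, n = 3) of all cyclase reads per kilobase of exon in noncystic *Pkd2* +/+ kidneys. It showed no detectable change. Its level was 206, 189 and 244 CPM without cysts and 242, 199 and 212 CPM with cysts (log2 fold change 0.03, SE 0.10, adjusted p = 0.874). The groups overlapped fully. *Adcy1*, *Adcy2*, *Adcy5*, *Adcy9* and *Adcy10* did not pass in *Pkd2* +/+ mice either, with log2 fold changes from -0.82 (*Adcy10*, under 1 CPM) to 0.07 (*Adcy1*).

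The phosphodiesterases held 10 of the 21 called changes, 2 higher and 8 lower of 21 genes tested, where 16.9% of all genes were higher and 14.2% lower. This split depended on the scaling. With library totals in edgeR *Pde3b*, *Pde4a*, *Pde6d*, *Pde8b* and *Pde10a* passed as higher and *Pde4c*, *Pde8a* and *Pde9a* as lower. *Pde8b*, an enzyme specific to cAMP, had the smallest p of all members (ENSMUSG00000021684, chr13:95024454-95250336, reverse strand). It stood at 29.6, 30.6 and 29 CPM in noncystic and 58.6, 64.6 and 58.1 CPM in cystic *Pkd2* +/+ mice, 2.03-fold higher (log2 fold change 1.02, SE 0.08, adjusted p = 9.65e-08). With the motif deleted on both alleles the levels were 30.7, 27.9 and 28.7 CPM and 53.6, 58.7 and 55.1 CPM (log2 fold change 0.94, SE 0.08, adjusted p = 6.99e-07). All 6 cystic mice lay far above all 6 noncystic mice. *Pde8b* is also known from the adrenal cortex. Mice 27 and 30, with adrenal markers, had 58.1 and 55.1 CPM, and without them the change was 1.05 in *Pkd2* +/+ mice. Of its exon bases 7.6% are shared with a gene on the other strand.

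Its closest relative, *Pde8a*, changed in the opposite direction. *Pde8a* stood at 60.1, 65.5 and 67.2 CPM in noncystic and 47.5, 39.8 and 42 CPM in cystic *Pkd2* +/+ mice (log2 fold change -0.58, SE 0.10, adjusted p = 3.76e-04). No cystic mouse reached a noncystic one. The fall in *Pkd2* Δ17/Δ17 mice was 0.45 on the log2 scale (log2 fold change -0.45, adjusted p = 0.00448). Per kilobase of exon, *Pde8a* stood at a mean of 15.9 CPM and *Pde8b* at 5.06 CPM in noncystic *Pkd2* +/+ mice, and at 10.7 and 10.3 CPM in cystic ones. Both promoters held the letters TGACG.

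The PDE3 pair, enzymes that break down cAMP and are inhibited by cGMP, split in the same way. *Pde3b*, the form known from fat cells and hepatocytes, was 31.7, 41.9 and 35.1 CPM in noncystic and 74.9, 61.5 and 77.1 CPM in cystic *Pkd2* +/+ mice (1.97-fold, log2 fold change 0.98, SE 0.13, adjusted p = 1.47e-05). *Pde3b* in *Pkd2* Δ17/Δ17 mice was 34.5, 32.6 and 26.9 CPM and 48.6, 53.7 and 62.3 CPM (log2 fold change 0.81, SE 0.13, adjusted p = 1.82e-04). Every cystic mouse was above every noncystic mouse in both genotypes. *Pde3a*, the cardiovascular form, was 35.9, 34.8 and 38.3 CPM against 28, 30.9 and 28.5 CPM in *Pkd2* +/+ mice (log2 fold change -0.32, SE 0.08, adjusted p = 0.00733). Its groups did not overlap, but the call was lost with library totals (-0.16, adjusted p = 0.17). Its change of -0.07 in *Pkd2* Δ17/Δ17 mice did not pass.

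Among the 4 PDE4 enzymes, which are specific to cAMP, *Pde4c* and *Pde4d* were lower and with TMM factors *Pde4a* and *Pde4b* did not pass. *Pde4c* is the PDE4 form reported at primary cilia (ENSMUSG00000031842, chr8:70723720-70751186, forward strand). It stood at 96, 79.2 and 90.3 CPM in noncystic and 51, 21.8 and 41.6 CPM in cystic *Pkd2* +/+ mice, 2.32 times lower (log2 fold change -1.21, SE 0.21, adjusted p = 2.18e-04). *Pde4c* in *Pkd2* Δ17/Δ17 mice was 86.9, 127 and 109 CPM and 51.4, 55.7 and 51.1 CPM (log2 fold change -1.03, SE 0.20, adjusted p = 0.00127). Both pairs of groups were well apart, and mouse 26 was the lowest of all. *Pde4d*, at 9.34 to 16.1 CPM, fell by 0.43 on the log2 scale in *Pkd2* +/+ mice (log2 fold change -0.43, SE 0.13, adjusted p = 0.0175) and by 0.52 in *Pkd2* Δ17/Δ17 mice (-0.52, adjusted p = 0.00699). In *Pkd2* +/+ mice its call ended with library totals (adjusted p = 0.123) and without mouse 20 or 27 (0.0695 and 0.0604).

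All 3 enzymes of the PDE1 family, which calcium and calmodulin switch on, were lower in cystic *Pkd2* +/+ kidneys and none passed in *Pkd2* Δ17/Δ17 mice, while the difference between the genotypes passed for none of them (adjusted p 0.625 to 0.875). *Pde1a*, the most abundant, was 78.8, 71.7 and 66.5 CPM without and 44.8, 65.9 and 49.9 CPM with cysts (log2 fold change -0.44, SE 0.14, adjusted p = 0.0226). The groups met closely, at 66.5 and 65.9 CPM. *Pde1b* (-0.54, adjusted p = 0.037) and *Pde1c* (-0.73, adjusted p = 0.03) stood at only 2.21 to 7.47 CPM. These 3 calls were the least steady of the family: all were lost with library totals (adjusted p 0.119, 0.13 and 0.0815), and each was lost without any of 3 single mice. Those were mice 19, 25 and 27 for *Pde1a* (0.0845 to 0.0971), 20, 26 and 27 for *Pde1b* (0.0684 to 0.124) and 20, 21 and 27 for *Pde1c* (0.0669 to 0.137).

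*Pde9a*, which breaks down cGMP and not cAMP, was 30.2, 34.7 and 36.5 CPM in noncystic and 24.9, 21.4 and 24.1 CPM in cystic *Pkd2* +/+ mice (log2 fold change -0.52, SE 0.10, adjusted p = 7.74e-04). The cystic values lay below all noncystic ones. The change in *Pkd2* Δ17/Δ17 mice was -0.28 (adjusted p = 0.0567). The other 11 phosphodiesterases tested did not pass in either genotype with TMM factors. Among them was *Pde6d*, a prenyl-binding protein rather than an enzyme, with the highest level per length of the family in noncystic *Pkd2* +/+ kidneys. With library totals in edgeR *Pde4a*, *Pde6d* and *Pde10a* passed as higher in *Pkd2* +/+ mice. In *Pkd2* Δ17/Δ17 mice *Pde4a*, *Pde4b* and *Pde5a* then passed as higher. *Pde2a* was not readable here: it had at most 5 reads in a mouse, and 64.3% of its exon bases are shared with another annotated gene on the same strand.

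**Figure D2:**
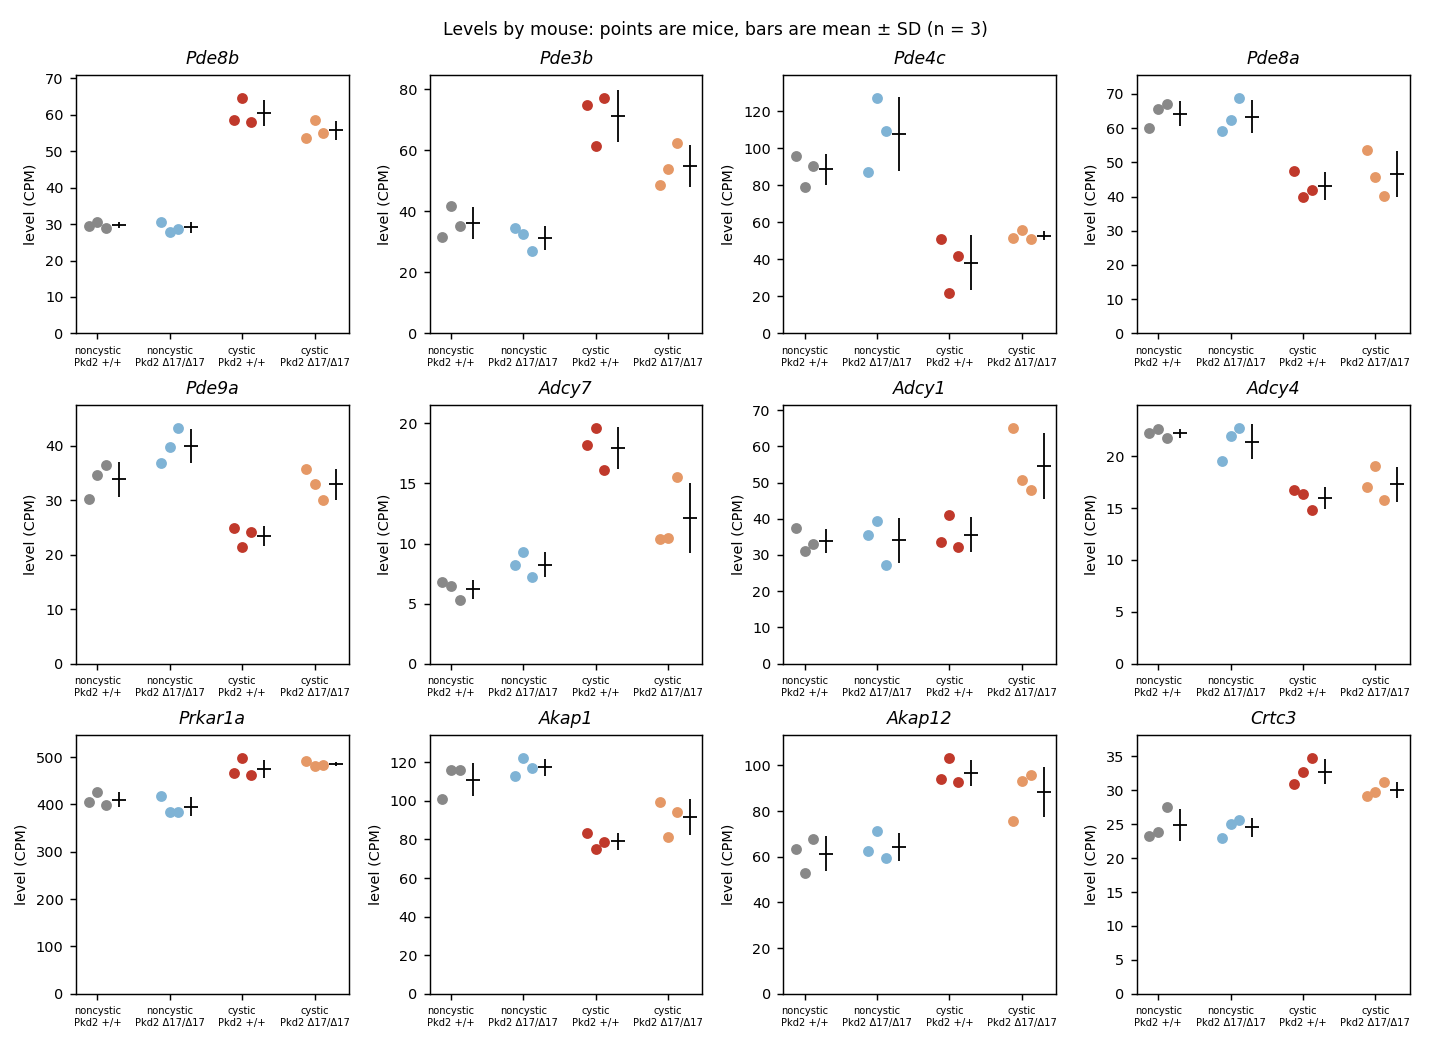
Levels in CPM (y axes, from 0) of 12 genes in the 4 groups of 3 mice; points are mice and the black marks are the mean ± SD. *Pde8b* and *Pde3b* are higher and *Pde4c*, *Pde8a* and *Akap1* lower in all 6 cystic mice than in all 6 noncystic mice, the 3 cystic *Pkd2* Δ17/Δ17 mice lie above all others for *Adcy1*, and *Adcy7* in the cystic *Pkd2* Δ17/Δ17 group lies between the other groups.

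The catalytic subunits of PKA did not pass in either genotype with all mice and TMM factors. With library totals *Prkaca* and *Prkacb* passed as higher in *Pkd2* Δ17/Δ17 mice. *Prkaca*, which held 77.1% ± 1.62 (SD, n = 3) of the catalytic reads per kilobase in noncystic *Pkd2* +/+ kidneys, was 75.2, 86.1 and 79.8 CPM without and 64.8, 64.2 and 80.7 CPM with cysts (log2 fold change -0.20, SE 0.09, adjusted p = 0.11). Mouse 27, with adrenal markers, was as high as the noncystic mice, and without mice 27 and 30 the change was -0.32 and passed (adjusted p = 0.0135). The change in *Pkd2* Δ17/Δ17 mice was 0.18 (adjusted p = 0.172).

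The regulatory subunits changed unequally. *Prkar1a*, the type I subunit and the most abundant member of the list, was 406, 427 and 398 CPM in noncystic and 466, 497 and 463 CPM in cystic *Pkd2* +/+ mice (log2 fold change 0.21, SE 0.07, adjusted p = 0.0399). The groups were apart, but the call lay near the threshold: leaving out any mouse other than 28 brought the adjusted p to between 0.0502 and 0.173. Mice 22, 23, 24, 29 and 30 among these are *Pkd2* Δ17/Δ17 and enter this comparison only through the joint fit. In *Pkd2* Δ17/Δ17 mice the levels were 418, 383 and 385 CPM and 491, 482 and 484 CPM, a larger rise (log2 fold change 0.30, SE 0.07, adjusted p = 0.00729).

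*Prkar2b*, the type II subunit known from fat cells and brain, showed the largest fall of the list (ENSMUSG00000002997, chr12:31958476-32061296, reverse strand). It was 30.9, 77 and 43.6 CPM in noncystic and 9.45, 14.3 and 19.3 CPM in cystic *Pkd2* +/+ mice, 3.53 times lower (log2 fold change -1.82, SE 0.38, adjusted p = 0.00142). In *Pkd2* Δ17/Δ17 mice it was 39.1, 47.2 and 41.2 CPM and 31.9, 7.97 and 16.1 CPM (log2 fold change -1.19, SE 0.38, adjusted p = 0.0309). The groups did not overlap in either genotype, yet the values within a group were widely spread, and in *Pkd2* Δ17/Δ17 mice the call was lost without mouse 23, 24, 29 or 30 (adjusted p 0.0617 to 0.115).

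Fat tissue markers ran beside *Prkar2b*. The sum of 8 such genes, chosen after the values had been seen, was 595, 1225 and 675 CPM in noncystic and 214, 214 and 340 CPM in cystic *Pkd2* +/+ mice, and 610, 752, 551 and then 370, 144 and 275 CPM in *Pkd2* Δ17/Δ17 mice. Mouse 20 was highest and mouse 29 lowest for both measures. *Adipoq* and *Plin1*, which define fat cells, were lower in cystic *Pkd2* +/+ kidneys (log2 fold change -1.99 and -2.25). Of the 8 markers 6 passed as lower and *Lep* as higher. With the logarithm of this sum as a covariate in the fit, the change of *Prkar2b* was 0.28 in *Pkd2* +/+ mice (adjusted p = 0.628) and 0.29 in *Pkd2* Δ17/Δ17 mice (adjusted p = 0.538). The direction of *Prkar2b* was then reversed and no longer passed in either genotype. The sum itself did not overlap between cystic and noncystic mice, so that this covariate also takes up part of the difference between the conditions. Under it 3077 genes passed in *Pkd2* +/+ mice in place of 7665, and 5 members in place of 21.

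*Prkar2a*, the other type II subunit, was lower by less in *Pkd2* +/+ mice (log2 fold change -0.26, SE 0.08, adjusted p = 0.0157), and the call was lost with library totals (-0.10, adjusted p = 0.321) and without mouse 25 (0.0817). *Prkar1b* did not pass with TMM factors and passed as higher in *Pkd2* Δ17/Δ17 mice with library totals.

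**Figure D3:**
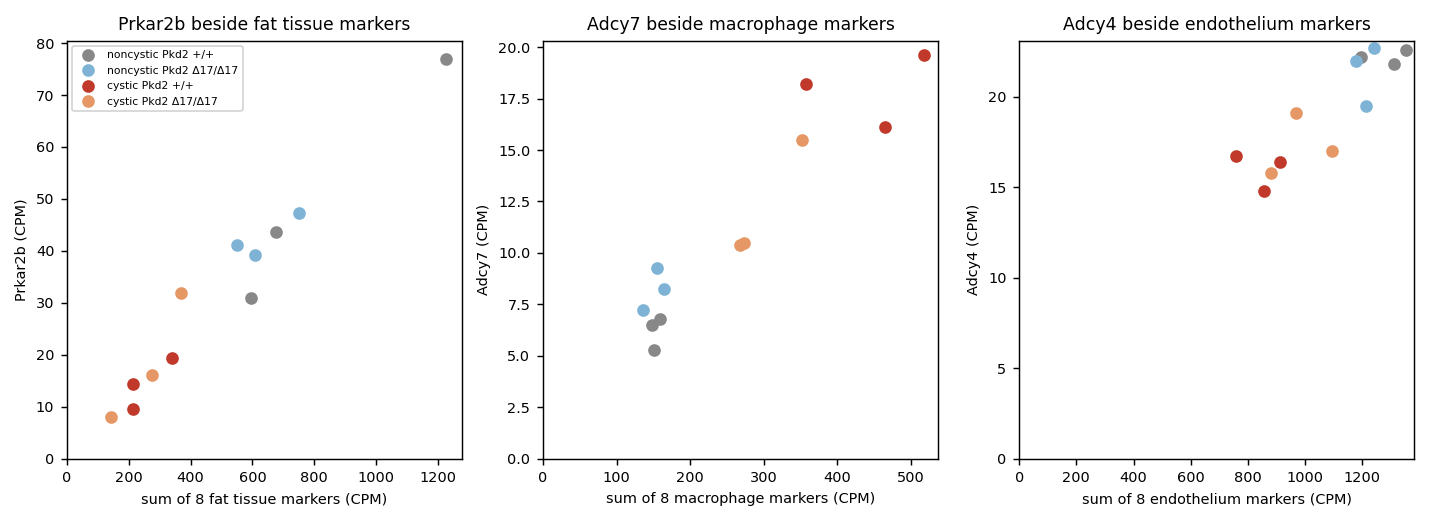
Level of *Prkar2b*, *Adcy7* and *Adcy4* (y axes, CPM) in each of the 12 mice against the summed CPM of 8 markers of fat tissue, macrophages and endothelium (x axes); colours give the 4 groups. *Prkar2b* runs from 7.97 CPM in the mouse with the lowest fat sum, 144 CPM, to 77 CPM in the mouse with the highest, 1225 CPM, and the cystic mice lie apart from the noncystic mice on the marker axis of each panel.

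Of 12 AKAPs tested, 2 were higher and 1 lower in *Pkd2* +/+ mice, where 16.9% of all genes were higher and 14.2% lower. *Akap12*, also called gravin, was 63.3, 52.9 and 67.7 CPM in noncystic and 93.8, 103 and 92.9 CPM in cystic mice (log2 fold change 0.65, SE 0.11, adjusted p = 1.30e-04), and it was higher in *Pkd2* Δ17/Δ17 mice as well (0.45, SE 0.11, adjusted p = 0.00429). The cystic mice all stood above the noncystic ones in both genotypes. *Akap1*, which ties PKA to the outer mitochondrial membrane, was 101, 116 and 116 CPM and 83.4, 75 and 78.6 CPM (log2 fold change -0.49, SE 0.08, adjusted p = 2.57e-04). Its groups did not overlap, and in *Pkd2* Δ17/Δ17 mice it was lower too (-0.36, SE 0.08, adjusted p = 0.00482). *Akap1* was the AKAP with the highest level per kilobase of all exon bases in each group, whereas per kilobase of the longest transcript *Akap8* stood at 20.8 and *Akap1* at 20.6 CPM in cystic *Pkd2* +/+ mice. *Akap9*, a scaffold of the centrosome and Golgi, was higher in *Pkd2* +/+ mice (0.32, adjusted p = 0.0119, with 84 CPM in cystic mouse 27 against 84.6 CPM in noncystic mouse 21), and the call was lost without mouse 20 or 26 (0.0946 and 0.0516). Its change of 0.10 in *Pkd2* Δ17/Δ17 mice did not pass, and neither did the difference between the genotypes (adjusted p = 0.693). *Akap8l*, a nuclear protein, passed as lower in *Pkd2* Δ17/Δ17 mice (-0.44, adjusted p = 0.0453) and stood at -0.35 in *Pkd2* +/+ mice (adjusted p = 0.095), with no call for the difference (0.953), and the call was lost without mouse 19, 23, 24, 27, 28, 29 or 30 (0.05002 to 0.145).

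With TMM factors the transcription factors at the end of the pathway changed little. With library totals, in edgeR and in limma-trend, *Creb1* passed as higher in both genotypes. The values that follow are with TMM factors. *Creb1* was 64.6, 58.7 and 55.1 CPM in noncystic and 65.6, 68.4 and 61.2 CPM in cystic *Pkd2* +/+ mice (log2 fold change 0.13, SE 0.08, adjusted p = 0.272), with overlapping groups. *Crem* did not pass. *Atf1*, which has the highest level per length of these factors, was 1.19-fold higher in *Pkd2* Δ17/Δ17 mice (adjusted p = 0.0463), did not pass in *Pkd2* +/+ mice or for the difference (0.633), and 8 of the 12 mice each ended that call when left out (0.0587 to 0.244). Of the CRTC coactivators, which move to the nucleus when cAMP rises, *Crtc3* was 23.3, 23.8 and 27.6 CPM in noncystic and 30.9, 32.7 and 34.7 CPM in cystic *Pkd2* +/+ mice (log2 fold change 0.39, SE 0.09, adjusted p = 0.00353). The groups did not overlap, and the change in *Pkd2* Δ17/Δ17 mice was 0.29 (adjusted p = 0.0336). *Crtc1* was 1.22-fold higher in *Pkd2* +/+ mice (adjusted p = 0.0467), and leaving out any of 9 mice ended the call (0.0507 to 0.243). *Crtc2*, the most abundant per length, did not pass in edgeR, and passed as higher with limma-trend on library totals in *Pkd2* +/+ mice.

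The Epac genes did not pass. *Rapgef3* (Epac1) was 115, 117 and 131 CPM without and 131, 85.4 and 111 CPM with cysts in *Pkd2* +/+ mice (log2 fold change -0.15, SE 0.12, adjusted p = 0.401). Mouse 26 alone was low, and without it the change was 0.0017. *Rapgef4* (Epac2) was lower by 0.37 on the log2 scale, at an adjusted p of 0.0567 (log2 fold change -0.37).

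Because genes differ in length, the make-up of each family was computed from CPM per kilobase of exon. In the phosphodiesterases of *Pkd2* +/+ mice the share of *Pde4c* went from 16.0% ± 1.44 to 7.53% ± 2.80 (SD, n = 3) and that of *Pde8a* from 16.0% ± 1.08 to 11.8% ± 0.824. The shares of *Pde8b*, from 5.11% ± 0.148 to 11.4% ± 0.968, and of *Pde3b*, from 4.01% ± 0.599 to 8.67% ± 0.851, went up. The summed level of the family was 98.5 to 100.2 CPM per kilobase in the noncystic and 87.5 to 91.9 in the cystic mice. These groups did not overlap, and in *Pkd2* Δ17/Δ17 mice, at 100.4 to 104.5 and 90.3 to 100, they did not either. These sums rest on TMM factors. Library totals shifted the median of all genes up by 0.16 in *Pkd2* +/+ and 0.15 in *Pkd2* Δ17/Δ17 mice on the log2 scale. The sums were not computed with that scaling, so whether the fall holds there is not known. With 3 mice against 3, an exact two-sided permutation test of such a sum cannot go below p = 0.1.

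In the regulatory subunits the share of *Prkar1a* per length went from 74.9% ± 3.12 to 84.5% ± 1.32 and that of *Prkar2b* from 10.7% ± 4.21 to 3.01% ± 1.03 in *Pkd2* +/+ mice. In the cyclases *Adcy7* went from 2.05% ± 0.446 to 5.76% ± 0.634 and *Adcy4* from 10.5% ± 1.33 to 7.35% ± 0.403, while *Adcy6* held 68.6% ± 1.40 and 68.8% ± 3.30.

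**Figure D4:**
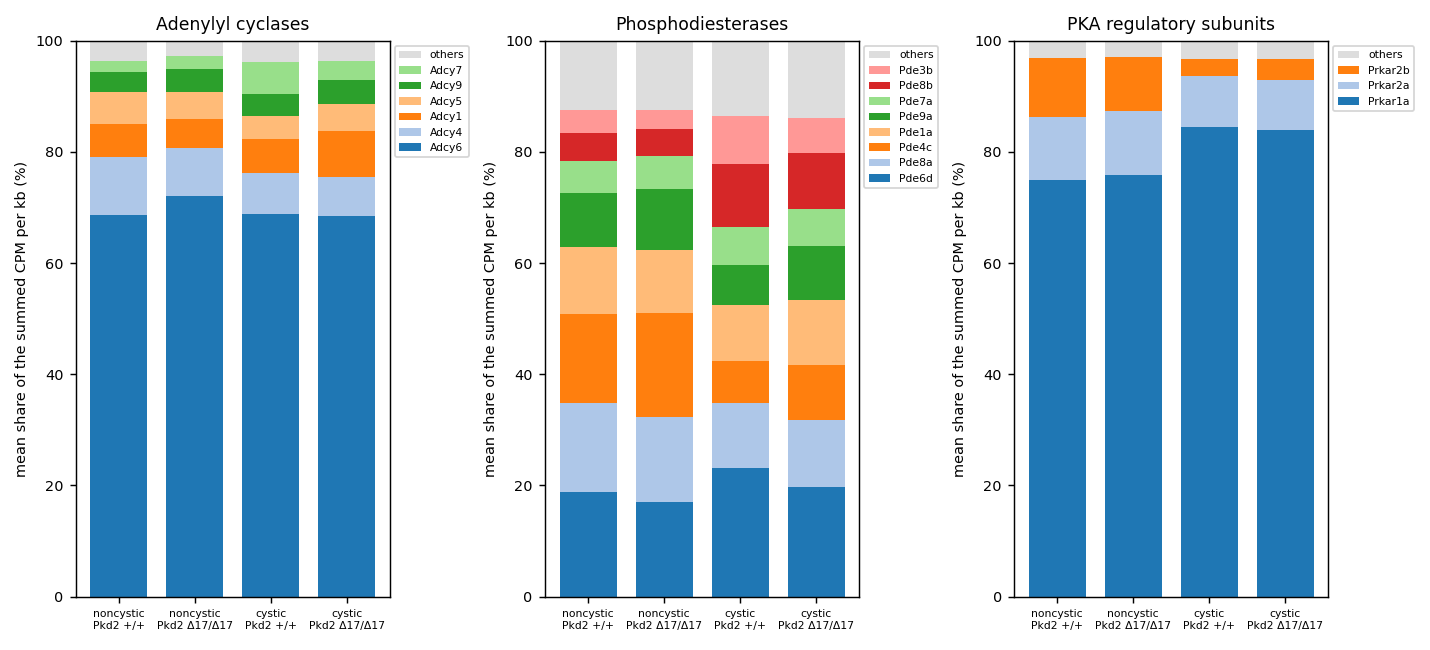
Mean share (y axis, %) of each gene in the summed CPM per kilobase of exon of the cyclases, phosphodiesterases and PKA regulatory subunits in the 4 groups (n = 3 mice each); genes under 4% in every group are pooled as others. In cystic kidneys the phosphodiesterase bars hold less *Pde4c* and *Pde8a* and more *Pde8b* and *Pde3b*, and the regulatory bars less *Prkar2b*, while *Adcy6* fills most of each cyclase bar.

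The deletion of the miR-17 motif was compared within the cystic mice, which asks whether the cAMP genes differ once *Pkd2* is derepressed. These comparisons share the cystic *Pkd2* +/+ mice with the comparison of cystic and noncystic kidneys, so a chance shift in those 3 mice enters both. Of the 56 genes 2 passed, both higher (3.57%, where 2.23% of all genes passed in either direction). At an unadjusted p under 0.05 there were 12 (21.4%, where 14.3% of all genes passed). The median log2 fold change was 0.08, against 0.00 over all genes.

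*Adcy1*, a cyclase that calcium and calmodulin stimulate, was 33.5, 41.1 and 32.3 CPM in cystic *Pkd2* +/+ mice and 65, 50.7 and 48 CPM in cystic *Pkd2* Δ17/Δ17 mice (ENSMUSG00000020431, chr11:7063489-7178506, forward strand). This was 1.53-fold higher (log2 fold change 0.62, SE 0.14, adjusted p = 0.0311). The noncystic mice, at 27.3 to 39.5 CPM, overlapped with the cystic *Pkd2* +/+ mice, so the cystic *Pkd2* Δ17/Δ17 group stood above all the others, and there *Adcy1* also passed against its noncystic mice (0.68, SE 0.14, adjusted p = 0.00191). The call of the deletion was lost when only the compared groups were fitted (adjusted p = 0.0579), without mouse 25, 27, 28 or 29 (0.0505 to 0.185), and without mice 27 and 30 (0.0862). The difference between the deletion effects in cystic and noncystic mice was 0.60 on the log2 scale and did not pass (SE 0.20, adjusted p = 0.405).

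*Pde9a* was 24.9, 21.4 and 24.1 CPM in cystic *Pkd2* +/+ mice and 35.8, 32.9 and 30 CPM in cystic *Pkd2* Δ17/Δ17 mice, 1.40-fold higher (ENSMUSG00000041119, chr17:31386210-31476310, forward strand). The log2 fold change was 0.48 (SE 0.10, adjusted p = 0.0218), and the groups did not overlap. Noncystic *Pkd2* +/+ mice stood at 30.2 to 36.5 CPM, which overlaps with the levels of the cystic mice with the deletion. Noncystic *Pkd2* Δ17/Δ17 mice stood at 36.9 to 43.2 CPM, above both of these groups. Neither the deletion in noncystic mice nor the difference between the deletion effects passed for *Pde9a*. The call of the deletion in cystic mice was lost when only the compared groups were fitted (0.0579) and without mouse 26, 27, 28 or 29 (0.0708 to 0.134), and it held without mice 27 and 30 (0.0487). Of the exon bases of *Pde9a* 8.34% are shared with other annotated genes on the other strand.

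*Adcy7* was the next gene by p in this comparison, lower by 0.57 on the log2 scale (log2 fold change -0.57, SE 0.16, adjusted p = 0.092). It passed with DESeq2 (adjusted p = 0.0242) and, in edgeR, without mouse 30 (-0.78, 0.0143), without mice 27 and 30 (-0.85, 0.0288) and with no cutoff on low counts (0.0107). In noncystic mice its change was 0.41 (SE 0.18, adjusted p = 0.771), and the difference between the deletion effects, -0.98 (SE 0.24, adjusted p = 0.222), had the smallest p of the 56 genes. That difference passed without mouse 30 (-1.19, adjusted p = 0.0384), with DESeq2 (0.0258) and with no cutoff on low counts (0.00349), and not without mice 27 and 30 (-1.26, 0.0609). Of the 8 macrophage markers, 4 were lower with the deletion in cystic kidneys and the other 4 did not pass. Their part in the difference was not tested.

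In noncystic kidneys the deletion changed none of the 56 genes in edgeR (0.00406% of all genes passed, which is 1 gene), in DESeq2 or in limma-trend. At an unadjusted p under 0.05 there were 7 (12.5%, where 6.31% of all genes passed), and none had an adjusted p under 0.771. The effect of the deletion differed between cystic and noncystic kidneys for none of the 56 in edgeR (0.0122% of all genes passed) or limma-trend (0.0365%) and for *Adcy7* in DESeq2, where 0.91% of all genes passed. At an unadjusted p under 0.05 there were 4, namely *Adcy1*, *Adcy7*, *Prkaca* and *Rapgef4* (7.14%, where 8.33% of all genes passed). The standard error of a difference in the deletion contrasts was near 0.12 for the median member, which sets the size of change that 3 mice against 3 could show.

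Other genes of the pathway were counted from lists taken from textbook knowledge. On the stimulatory side, receptors and G protein subunits that switch cyclases on, 4 of 25 tested were higher (16%) and 8 lower (32%) in cystic *Pkd2* +/+ kidneys, where 16.9 and 14.2% of all genes were. The 3 with the smallest p were the glucagon receptor *Gcgr* (log2 fold change -2.29, adjusted p = 3.63e-08), the parathyroid hormone receptor *Pth1r* (-1.15, adjusted p = 5.55e-07) and the ciliary receptor *Gpr161* (1.15, adjusted p = 3.61e-06). The list of the inhibitory side also held RGS genes, brakes on G proteins, so its members do not all act on cyclases in the same direction. Of 18 tested in it 2 were higher (11.1%) and 6 lower (33.3%), led by the prostaglandin E receptor *Ptger3* (-1.14, adjusted p = 3.82e-07), the G protein brake *Rgs16* (3.42, adjusted p = 2.45e-06) and the adrenergic receptor *Adra2b* (-1.10, adjusted p = 7.72e-06). In both lists the share that was lower was above that of all genes and the share that was higher was not, and most genes that passed were lower among the markers of the proximal tubule and thick ascending limb. Their part was not tested.

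Of 23 PKA inhibitors and other cAMP-handling genes tested 6 were higher (26.1%) and 1 lower (4.35%), against the same shares of all genes. The PKA inhibitor *Pkia* (0.63, adjusted p = 4.22e-05), the anchoring gene *Akap17b* (1.08, adjusted p = 5.60e-05) and the cAMP exporter *Abcc4* (0.81, adjusted p = 5.23e-04) led that list. Of 21 genes listed as targets of CREB 6 were higher (28.6%) and 7 lower (33.3%). That list also held *Crebbp* and *Ep300*, which are coactivators of CREB rather than targets. The 3 with the smallest p were genes of gluconeogenesis and of its control that the proximal tubule expresses: *Pck1* (-2.37, adjusted p = 4.78e-07), *G6pc* (-2.06, adjusted p = 2.24e-06) and *Ppargc1a* (-0.76, adjusted p = 1.46e-05). Of 9 outputs of vasopressin and PKA in the collecting duct and cyst, the sodium channel subunits *Scnn1b* (1.26, adjusted p = 1.62e-06) and *Scnn1g* (1.30, adjusted p = 2.64e-06) were higher and the urea transporter *Slc14a2* was lower (-1.31, adjusted p = 7.11e-04). Of 8 collecting duct markers 4 were higher, but *Scnn1b* and *Scnn1g* are themselves among these. *Aqp2*, *Aqp3* and *Aqp4* are also on both lists, so the 2 counts are not separate observations. The part of the collecting duct markers was not tested.

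*Rgs2* is on both the inhibitory list and the list of CREB targets and was counted in each. With the deletion in cystic kidneys 6 of the 96 entries tested in these lists passed (6.25%, where 2.23% of all genes passed), all higher. They were *Slc14a2* (log2 fold change 1.43, SE 0.26, adjusted p = 0.00902), *Ptger3* (0.65, SE 0.10, adjusted p = 0.00393), *Gcgr* (0.69, SE 0.16, adjusted p = 0.0322), the calcium-sensing receptor *Casr* (0.80, SE 0.19, adjusted p = 0.0384), the immediate early gene *Nr4a1* (1.57, SE 0.38, adjusted p = 0.0411) and the salt-inducible kinase *Sik1* (0.41, SE 0.10, adjusted p = 0.0421). Of these, *Ptger3* passed without every single mouse. *Slc14a2* did not without mouse 27 (0.0599), and the other 4 were each lost without 4 to 6 of the mice (*Gcgr* 0.0631 to 0.126, *Casr* 0.0522 to 0.219, *Nr4a1* 0.0509 to 0.170, *Sik1* 0.0597 to 0.183).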

How the data were processed

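RNA-seq of whole kidneys from 12 mice was used. Per the labels the authors used Trim Galore 0.6.3 for trimming and STAR 2.5.3a for alignment to GRCm38, and they deposited raw counts per gene. The strand setting is not given in the sources used here. GENCODE M21 held 54495 (99.93%) of the gene identifiers and was the source of coordinates and exon lengths, and 343 genes had no name.

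The counts were fitted with edgeR 4.0.16 under R 4.3.3. Genes with a mean log2CPM of at least -3 were kept, scaled with TMM factors and fitted with 1 mean per group over all mice (quasi-likelihood test, Benjamini-Hochberg adjustment, threshold 0.05). Fold changes are on the log2 scale with their standard errors. Replicates are separate mice, numbered 19 to 30 by their labels. The p-values rest on the spread between mice within groups, estimated for each gene over all 12 mice together (8 residual degrees of freedom) and moderated across genes. Counting intervals would cover counting error only and were not used. Alternatives used limma 3.58.1 (limma-trend), DESeq2 1.42.0, other scalings and cutoffs, Xist or a fat marker sum as covariate, and leaving out mice. The fits were tested on simulated data. Full values were given for the 12 called members with the smallest adjusted p in *Pkd2* +/+ mice and for those called with the deletion, values in brief for the other called members and for *Creb1*, *Adcy6*, *Prkaca* and *Rapgef3*, and names of other pathway genes for the 3 smallest p of a list or a call with the deletion. The members and lists were chosen with earlier results of these data known. The fat marker list, its covariate and the fit without mice 27 and 30 were chosen after seeing the data. Promoter and microRNA sequences are from RefSeq.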

Additional observations from a re-analysis of the deposited data

How the results depend on the processing

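Between cystic and noncystic kidneys 21 members passed in *Pkd2* +/+ mice and 16 in *Pkd2* Δ17/Δ17 mice, 2 passed for the deletion in cystic kidneys and 0 for the difference between the deletion effects. At an adjusted p under 0.01 the first 3 of these counts were 12, 10 and 0, and with a limit of 1.5-fold 7, 6 and 1. The shares of all genes at these limits are not given here. With the fat marker sum as covariate the cyst counts were 5 and 4 (8.93 and 7.14%, where 12.5 and 9.8% of all genes passed). Without mice 27 and 30 the cyst count of *Pkd2* Δ17/Δ17 mice was 10 (17.9%, where 17% of all genes passed). With no cutoff on low counts the deletion gave 8 (4.94% of all genes passed) and the difference 3 (1.71%), with DESeq2 the difference gave 1, and with only the compared groups in the fit the deletion gave 0. Leaving out each mouse gave 15 to 21, 10 to 17, 0 to 3 and 0 to 1 for the 4 counts in that order. The cyst counts were then 26.8 to 37.5% and 17.9 to 30.4% of the members, where 26.3 to 30.8% and 18 to 24.2% of all genes passed. Of all genes 0.479 to 3.46% passed for the deletion and 0 to 0.245% for the difference. The count in *Pkd2* Δ17/Δ17 mice was lowest without mouse 24 or 30, the deletion was 0 without mouse 27, 28 or 29, and the difference was 1 without mouse 30. The deletion in noncystic kidneys gave 0 in every setting. The cause of these changes was not tested.

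Of 989 alternative values for 43 changes of single members 809 stayed on their side of the threshold in the same direction, 168 lost it and 4 gained it. The gains, all in *Pkd2* +/+ mice, were *Creb1* with library totals in edgeR and in limma-trend, and *Prkaca* without mouse 27 and without mice 27 and 30. The direction reversed for 8: *Rapgef3* in *Pkd2* +/+ mice with library totals (0.0134) and without mouse 26 (0.0017, and leaving out other mice gave values down to -0.297), *Adcy6* without mouse 20 (-0.0755) or 25 (-0.0555), and leaving out other mice gave values up to 0.12, and with the fat covariate (-0.0619), *Prkaca* with that covariate (0.0275), and *Prkar2b* with it in *Pkd2* +/+ (0.278) and *Pkd2* Δ17/Δ17 mice (0.292). No paired analysis was possible because the mouse numbers are not shared between groups. With 3 mice per group and genes under 1 CPM, 11 of the 60, smaller changes were not detectable.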
